A study of Homo sapiens with 32 samples.

Results

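HEC265 is a human endometrial cancer cell line that carries a mutation in CTNNB1, the gene of beta-catenin. It was treated for 24 h with the CLK inhibitor SM08502 alone, at 149 nM, or with the same dose of SM08502 together with 5.6 nM paclitaxel, each dose being the IC50 of that drug for viability of the line. The comparison described here is between the 2 libraries of the combination and the 2 libraries of SM08502 alone, 4 of the 32 libraries of the study. They were chosen by the line, treatment and replicate number in their titles. The other HEC265 groups, 2 libraries with vehicle (0.1% DMSO) and 2 with 5.6 nM paclitaxel alone, gave the spread between replicates together with these 4 and are set beside them where they help. Every group held DMSO, cells were plated in duplicate, and 500 ng of RNA from each was depleted of ribosomal RNA before sequencing. The duplicates are not described as separate cultures beyond that plating, so p values measure the spread between these samples, which may be technical.

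Paclitaxel binds beta-tubulin, stabilises microtubules and disturbs the mitotic spindle, and it is a standard drug against endometrial cancer. SM08502 inhibits the CDC-like kinases CLK1 to CLK4, which phosphorylate SR proteins, a family of splicing factors, and thereby alters splicing. CLK inhibition is also known to lower Wnt signalling, in which beta-catenin acts with TCF and LEF factors to drive target genes such as AXIN2. The comparison asks which transcripts paclitaxel moves in cells in which SM08502 is already acting.

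Paclitaxel on top of SM08502 changed few genes and by small amounts. Among the genes lower with the combination were 11 of 12 listed histone genes and 8 of 16 Wnt genes, and among those higher were 7 of 19 immediate early genes and 3 of 14 genes of NF-kappaB response and cytokines. Levels were compared as log2(CPM + 1), where CPM is the reads of a gene per 1000000 reads of the library, with limma across the 13235 genes above 1 CPM in at least 2 of the 8 HEC265 libraries. A gene was called at a Benjamini-Hochberg adjusted p under 0.05. By this rule 192 genes were called, 1.45% of those tested. Of these, 71 (0.536%) were higher and 121 (0.914%) lower with the combination, and 1957 genes had an unadjusted p under 0.05. The median size of the change among called genes was 0.34 on the log2 scale, and 6 of them changed by more than 2-fold. The median change over all genes tested was 0.01, with 7153 genes above 0 and 6081 below. For 5706 genes (43.1%) both combination libraries lay on the same side of both SM08502 libraries, so that the groups did not overlap.

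The count of calls moved with the samples from which the spread was taken. Taking the spread of all 32 libraries of the 4 lines, 1 of 17011 genes was called (0.00588%), SERPINB2 at an adjusted p of 0.0452, and over the 13235 genes above there were 0 calls (204 genes had an unadjusted p below 0.05). Without the filter on low values or without the trend of spread on level, there were 0 calls (2813 and 1679 genes had an unadjusted p below 0.05). Without the first SM08502 library 4 genes were called and without the second 15. Without the first combination library 1180 were called and without the second 87, and 62 were called when the 4 libraries compared set the spread alone. Of the 36 called genes that the naming rule picked, each kept its direction under every one of these alternatives that gave a value. None of the 36 was called in the 3 fits with no calls, so each change named below is a call of the HEC265 fit and not of those fits. Of the 36, 22 stayed called with limma voom and 13 with the spread of the 4 libraries compared. Of 18 alternatives, MMP1 kept its call in 4, SGK1 and ABCC2 in 5, TUBA4A in 7 and HIST1H3H in 15. LRP5, IL1RN, JPH2, INCENP, FOSL2, AC093616.4 and HIST1H2AD kept theirs in 6.

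**Figure D1:**
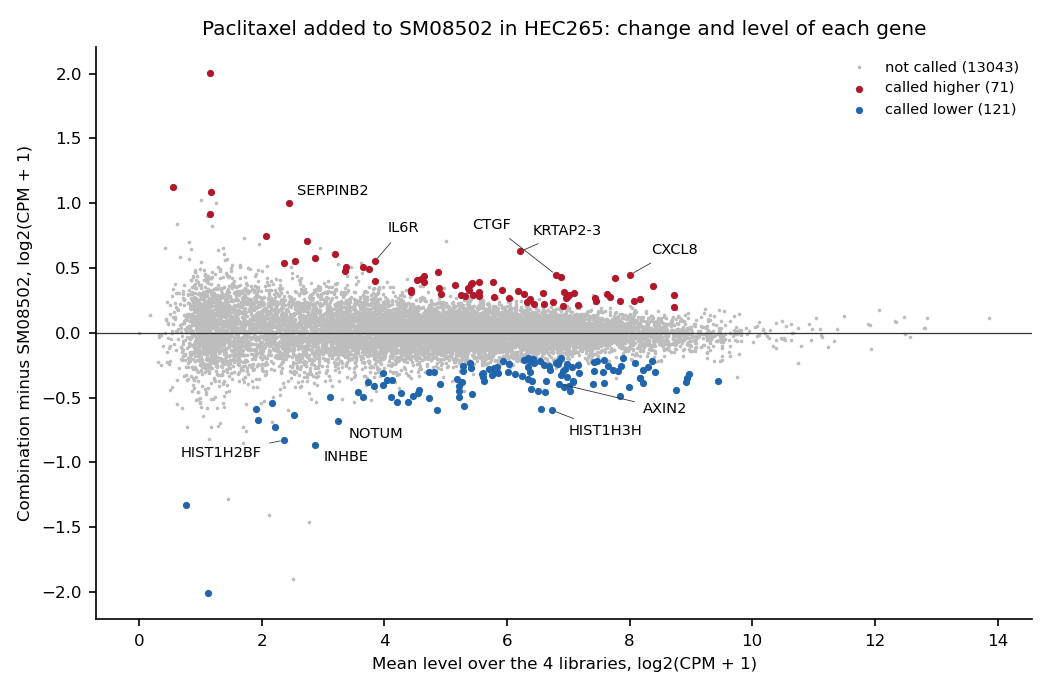
Each point is 1 of 13235 genes; the x axis is the mean log2(CPM + 1) over the 4 libraries compared, and the y axis is the combination minus SM08502 on the same scale. The 71 genes called higher are red and the 121 called lower are blue. Called genes at high levels lie within 1 log2 unit of 0, and the points farthest from 0 have low means.

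The libraries held between 20.9 and 27.7 M reads (M, 1000000) in HEC265, and 3 reads equalled 0.108 to 0.143 CPM. The replicates of a group differed by a root mean square of 0.0790 log2 units with SM08502 over the 6403 genes with a mean log2(CPM + 1) of at least 5 and by 0.119 with the combination, against 0.0683 with vehicle and 0.0854 with paclitaxel. In 167 of the 192 called genes the second combination library was farther from the SM08502 libraries than the first. The mitochondrially encoded genes took 7.20% and 4.80% of reads in the SM08502 libraries and 5.64% and 7.02% in the combination libraries, so their share varied within each group. The 10 epithelial markers, among them EPCAM, CDH1 and KRT8, were all detected and summed to 2570 and 2726 CPM with SM08502 and to 2661 and 2440 CPM with the combination. The 8 stromal markers summed to 4.42 to 6.50 CPM and the 6 endothelial markers to 2.29 to 3.04 CPM in these 4 libraries. Of the 8 immune markers, CD68, a lysosomal protein gene, held most of a sum of 36.9 to 52.8 CPM, while CD3E was at 0 reads in all 4 libraries. CD68 stood at 34.3 and 38.7 CPM with SM08502 and at 38.2 and 50.4 CPM with the combination, and was not called (adjusted p = 0.252). No member of the 4 marker lists was called. In such bulk samples fewer cells of a kind and less RNA per cell cannot be told apart.

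The largest group among the falls was that of the replication-dependent histone genes. These genes encode the H1, H2A, H2B, H3 and H4 proteins that package new DNA, lie in clusters, are transcribed mainly while DNA is copied, and give messages without a poly(A) tail. Of the 12 tested genes of the histone list, 11 were called lower and 0 higher, and their median change was -0.37. The wider set of all histone cluster symbols in the table, drawn up after these values were seen, had 42 tested genes. In it 32 were called lower and 0 higher, the median was -0.38, and 40 of 42 were below 0. All classes took part: 2 of 3 H1 genes, 10 of 13 H2A genes, 8 of 13 H2B genes, 6 of 6 H3 genes and 6 of 7 H4 genes were called lower. HIST2H3A and HIST2H3C are identical copies with the same values and are 1 measurement. HIST2H2AA4 was called lower (-0.49) and its near-identical copy HIST2H2AA3 was not (-0.08), so how reads were divided between them is uncertain.

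Summed over the 89 histone cluster symbols, the share of reads was 0.751% and 0.777% with SM08502 and 0.648% and 0.542% with the combination. Both combination libraries lay below both SM08502 libraries. HIST1H3H, an H3 gene at chromosome 6, 27810051 to 27810536 (GRCh38.p14, where RefSeq calls it H3C10), stood at 128 and 133 CPM with SM08502 and at 95.7 and 77.1 CPM with the combination. Its change was -0.60 (SE 0.07, adjusted p = 0.00189), a level 0.661 times that with SM08502. HIST1H2BL, an H2B gene (RefSeq H2BC13, chromosome 6, 27807479 to 27807929), went from 113 and 114 CPM to 82.9 and 68.6 CPM (-0.59, adjusted p = 0.00210). HIST1H4A, an H4 gene, went from 35.1 and 34.7 CPM to 25.5 and 20.3 CPM (-0.59, adjusted p = 0.00372). At lower levels HIST1H2BF went from 4.82 and 7.17 CPM to 3.21 and 2.58 CPM (-0.83, adjusted p = 0.00974), and HIST1H3J from 5.36 and 4.58 CPM to 2.999 and 2.25 CPM (-0.72, adjusted p = 0.00974). HIST1H2AD fell by 0.56 (adjusted p = 0.0403) with its combination libraries far apart, at 39.7 and 24.98 CPM. It overlaps the histone gene H3C4 in RefSeq, and the strand of counting is not given in the sources used here.

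The count of histone calls moved with the libraries, and the direction of the median did not. The median of the 42 was -0.51 without the first combination library and -0.24 without the second. It was -0.41 without the first SM08502 library and -0.37 without the second, and few of the calls were kept without either. With paclitaxel alone against vehicle, where 35 genes of 13235 were called (0.264%) and 4 of them lower (0.0302%), 2 of the 42 histone genes were called lower, 36 were below 0 and the median was -0.15. HIST1H3H was at 168 and 162 CPM with vehicle and at 128 and 129 CPM with paclitaxel, and fell (-0.36, adjusted p = 0.0488). The levels with paclitaxel alone and with SM08502 alone lay within 128 to 133 CPM, and both combination libraries lay below all 4. Against vehicle, SM08502 alone changed 57.7% of genes (21.1% lower) and 20 histone genes were called lower with it; with the combination, which changed 63.3% of genes (22.8% lower), 36 of the 42 were called lower, with a median of -0.53.

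The promoters of HIST1H3H and HIST1H2BL are shown as examples of histone genes called lower, most of which held short motifs near their start. The windows hold the 250 bases before the RefSeq start (GRCh38.p14), HIST1H3H at chr6:27809801-27810050 on the plus strand and HIST1H2BL at chr6:27807930-27808179 on the minus strand. Capitals mark the CCAAT box (CCAAT) and the TATA box (TATAAA), searched on both strands, so that ATTGG and TTTATA are matches on the opposite strand.
HIST1H3H: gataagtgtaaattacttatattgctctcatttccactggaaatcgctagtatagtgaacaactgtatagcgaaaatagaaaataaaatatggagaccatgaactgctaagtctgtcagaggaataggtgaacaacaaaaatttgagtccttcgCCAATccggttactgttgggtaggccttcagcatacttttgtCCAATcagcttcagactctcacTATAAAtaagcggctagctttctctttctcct
HIST1H2BL: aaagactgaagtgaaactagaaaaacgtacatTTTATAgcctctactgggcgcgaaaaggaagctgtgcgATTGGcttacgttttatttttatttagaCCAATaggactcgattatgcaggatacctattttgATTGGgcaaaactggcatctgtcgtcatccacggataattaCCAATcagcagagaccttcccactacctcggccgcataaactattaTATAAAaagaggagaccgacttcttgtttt
HIST1H3H has CCAAT starting 96 and 54 bases before the start and TATAAA 32 bases before it. The HIST1H2BL window has 4 CCAAT and 2 TATAAA matches, the nearest TATAAA 30 bases before the start. That window reaches into the histone gene HIST1H2AI (chromosome 6, 27808173 to 27808667), which was also called lower (-0.45, adjusted p = 0.00908). Its matches therefore cannot be credited to HIST1H2BL alone. Of the 32 histone genes called lower, 26 were found in the promoter table, and 22 of these (84.62%) held CCAAT against 35.85% of the 10212 tested genes in the table. TATAAA was in 20 of the 26 (76.92%) against 5.601%. Histone genes that were not called were not set beside them, so these shares do not bear on which histone genes fell. Of the 26 windows 8 overlap another, so they are not all separate sequences, and a match is only a description of the letters.

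**Figure D2:**
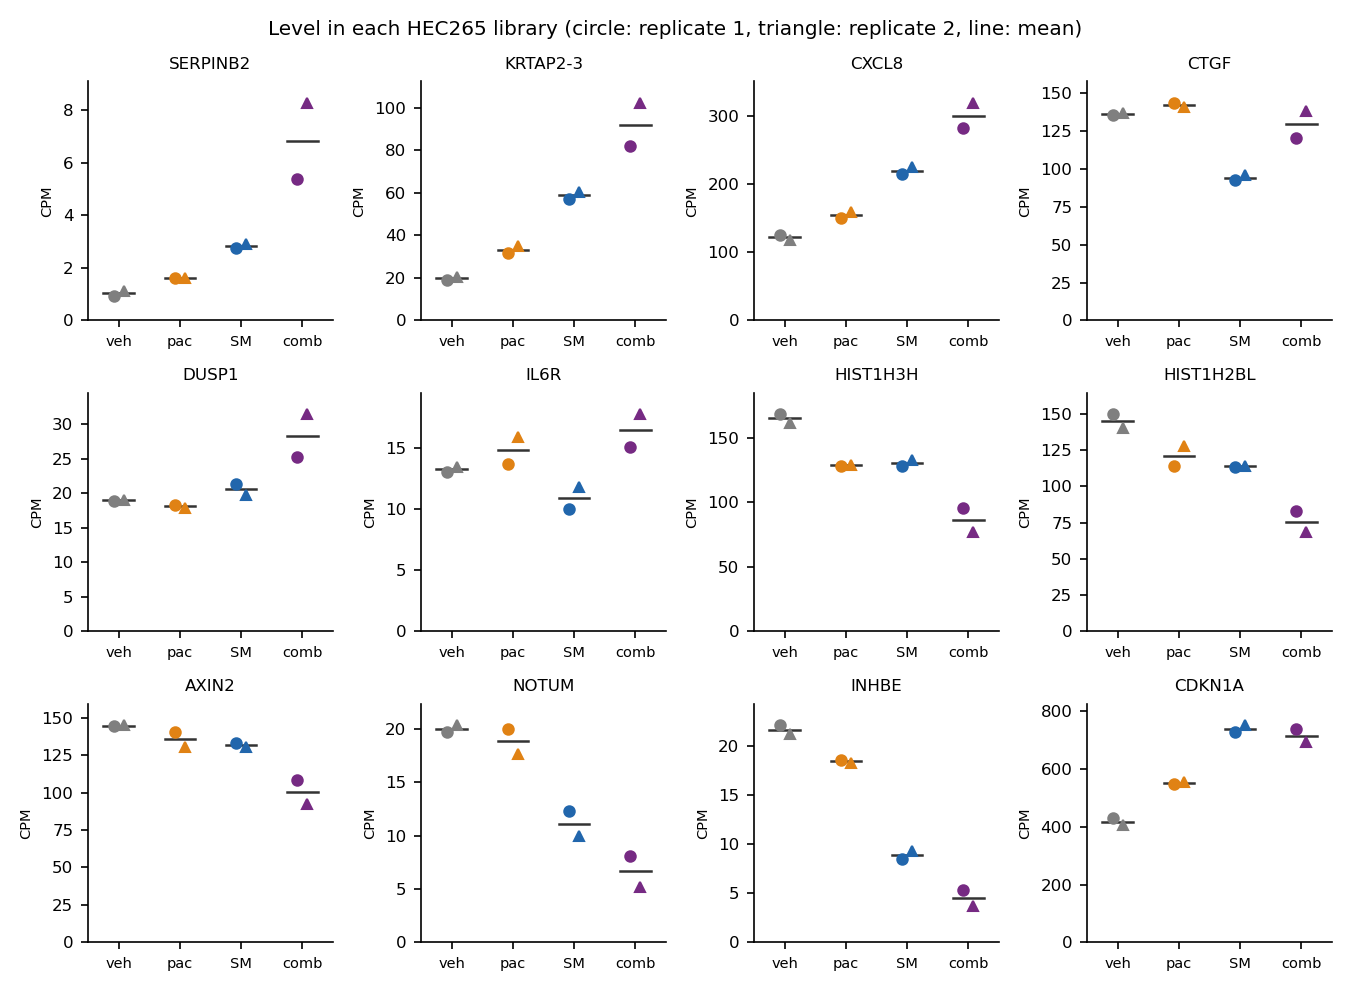
CPM (y axis, from 0) of 12 genes in the 8 HEC265 libraries, by treatment on the x axis (veh, vehicle; pac, paclitaxel; SM, SM08502; comb, combination). Circles are first and triangles second replicates, and lines are means. The combination lies above SM08502 for SERPINB2, KRTAP2-3, CXCL8, CTGF, DUSP1 and IL6R, below it for HIST1H3H, HIST1H2BL, AXIN2, NOTUM and INHBE, and overlaps it for CDKN1A.

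Wnt genes formed the next group of falls. Of the 16 tested members of the Wnt list, 8 were called lower and 0 higher, and the median change was -0.27. AXIN2, a scaffold of the beta-catenin destruction complex and a feedback target of the pathway, was at 133 and 131 CPM with SM08502 and at 108 and 92.5 CPM with the combination (-0.39, SE 0.06, adjusted p = 0.00575). NOTUM, a secreted enzyme that inactivates Wnt ligands, went from 12.3 and 9.95 CPM to 8.14 and 5.21 CPM (-0.68, adjusted p = 0.0266). LRP5, a Wnt co-receptor, went from 41.7 and 38.8 CPM to 35.1 and 27.5 CPM (-0.36, adjusted p = 0.0351), after a level of 118 CPM in both vehicle libraries. In each of these genes both combination libraries lay below both SM08502 libraries. Groups also did not overlap, in either direction, for 43.1% of all genes tested. The largest falls, NOTUM among them, were named only where the groups did not overlap.

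The other Wnt genes called lower are named here after their values were seen. NKD1, an inhibitor of Dishevelled, went from 88.0 and 94.6 CPM to 75.6 and 66.8 CPM (-0.36), and TNFRSF19, a Wnt-induced receptor, from 23.4 and 24.8 CPM to 19.0 and 14.1 CPM (-0.53). RNF43 and ZNRF3, ligases that remove Wnt receptors from the membrane, changed by -0.28 and -0.26, and TCF7, a DNA-binding partner of beta-catenin, by -0.28. With paclitaxel alone 0 of the 16 genes were called, the median was -0.07, and AXIN2 stood at 141 and 131 CPM against 144 and 145 CPM with vehicle (adjusted p = 0.548). The test of the difference between paclitaxel with and without SM08502 called none of the 16 (AXIN2 -0.30, adjusted p = 0.448). The Wnt calls were lost without the first or the second SM08502 library, and their number moved without either combination library. The median of the 16 was -0.38 without the first combination library and -0.15 without the second.

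Among the rises, the immediate early genes stood together. These genes respond within minutes to growth factors and stress, and many encode AP-1 and related transcription factors or phosphatases that switch off MAP kinases. Of the 19 tested members, 7 were called higher and 1 lower, 17 were above 0, and the median was 0.24. DUSP1, a MAP kinase phosphatase, stood at 21.4 and 19.8 CPM with SM08502 and at 25.2 and 31.5 CPM with the combination (0.44, SE 0.09, adjusted p = 0.0266). Named after their values were seen, KLF6 went from 101 and 100.3 CPM to 121 and 152 CPM (0.43), DUSP5 from 38.5 and 41.0 CPM to 49.8 and 55.2 CPM (0.39), and EGR1 from 39.2 and 34.2 CPM to 49.5 and 46.5 CPM (0.38). IER3 (0.31), IER2 (0.30) and FOSL1, the AP-1 subunit FRA1 (0.27), were the remaining rises. FOSL2, another AP-1 subunit, went the other way, from 125 CPM in both SM08502 libraries to 109.8 and 109 CPM (-0.19, adjusted p = 0.0378). FOS and JUN were not called (0.24 and 0.14). The calls among the 19 were lost without the first or the second SM08502 library, and their number moved without either combination library. Their median was 0.33 without the first combination library and 0.14 without the second. NR4A2, a nuclear receptor that is itself an immediate early gene, went from 5.09 and 4.94 CPM to 7.75 and 8.17 CPM (0.58, adjusted p = 0.0266).

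Of the 14 tested genes of NF-kappaB response and cytokines, 3 were called higher and 0 lower, 13 were above 0, and the median was 0.17. CXCL8, the neutrophil chemokine interleukin-8, stood at 214 and 224 CPM with SM08502 and at 282 and 318 CPM with the combination (0.45, SE 0.06, adjusted p = 0.00210). Its level rose at each step, from 126 and 118 CPM with vehicle to 150.3 and 159 CPM with paclitaxel alone (0.34, adjusted p = 0.0206). The other calls, named after their values were seen, were LIF, a cytokine of the interleukin-6 family (18.6 and 18.2 to 22.7 and 24.1 CPM), and TNFAIP3, the NF-kappaB inhibitor A20 (72.9 and 76.3 to 88.2 and 91.0 CPM). All or most of the calls in this list were lost without the first or the second SM08502 library, and their number moved without either combination library. The median of the 14 was 0.19 without the first combination library and 0.13 without the second. IL6R, the interleukin-6 receptor, rose by 0.55 (adjusted p = 0.0171), and IL1RN, the antagonist of the interleukin-1 receptor, rose from 3.44 and 3.14 CPM to 5.10 and 5.35 CPM (0.54, adjusted p = 0.0378).

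SERPINB2, the plasminogen activator inhibitor PAI-2, had the largest change of a gene above the level the naming rule required. It stood at 0.935 and 1.12 CPM with vehicle, 1.603 and 1.62 CPM with paclitaxel, 2.77 and 2.92 CPM with SM08502, and 5.40 and 8.26 CPM with the combination. The level was 2.40 times that with SM08502 (1.00, SE 0.17, adjusted p = 0.00802), and each treatment's libraries lay apart from the others. It lies at chromosome 18, 63887705 to 63903888 and overlaps an uncharacterised gene in RefSeq. In its list of 14 plasminogen system and clade B serpin genes, SERPINB1, an inhibitor of neutrophil proteases, was the other call (0.39, adjusted p = 0.0188, named after its value was seen), and 0 were lower. The calls among these 14 were lost without either SM08502 library, and their number moved without either combination library. The median was 0.14 with all libraries, 0.23 without the first combination library and 0.15 without the second.

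The remaining large rises named by the rule were KRTAP2-3, MMP1, FGFBP1, SGK1, TMEM40 and AC093616.4. KRTAP2-3, a keratin-associated protein, went from 57.2 and 60.6 CPM to 81.9 and 102 CPM (0.63, SE 0.08, adjusted p = 0.00281). It had also risen with paclitaxel alone, from 19.2 and 20.3 CPM to 31.6 and 35.1 CPM (0.72, adjusted p = 0.00108). MMP1, an interstitial collagenase that overlaps WTAPP1, went from 3.66 and 4.79 CPM to 6.21 and 9.03 CPM (0.71, adjusted p = 0.0434). FGFBP1, a secreted carrier of fibroblast growth factors, went from 6.92 and 5.98 CPM to 11.1 and 9.60 CPM (0.61, adjusted p = 0.0409). SGK1, a kinase induced by serum and glucocorticoids, rose by 0.51 (adjusted p = 0.0431), and the membrane protein gene TMEM40 by 0.55 (adjusted p = 0.0296). AC093616.4 rose by 0.75 (adjusted p = 0.0390) from SM08502 libraries that differed from each other, at 1.61 and 3.06 CPM.

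The promoters of CXCL8 and SERPINB2 are shown because genes called higher held the AP-1 motif in this window more often than tested genes did. The motif searched was TGANTCA, which reads alike on both strands and is also the core of the site of NF-E2 and MAF factors. CXCL8 is given at chr4:73740319-73740568 and SERPINB2 at chr18:63887455-63887704, both plus strand, GRCh38.p14, with the motif in capitals.
CXCL8: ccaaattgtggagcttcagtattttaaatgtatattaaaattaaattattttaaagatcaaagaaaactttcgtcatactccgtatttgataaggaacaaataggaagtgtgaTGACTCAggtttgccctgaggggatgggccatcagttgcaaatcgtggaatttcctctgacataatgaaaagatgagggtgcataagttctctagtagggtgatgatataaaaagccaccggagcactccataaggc
SERPINB2: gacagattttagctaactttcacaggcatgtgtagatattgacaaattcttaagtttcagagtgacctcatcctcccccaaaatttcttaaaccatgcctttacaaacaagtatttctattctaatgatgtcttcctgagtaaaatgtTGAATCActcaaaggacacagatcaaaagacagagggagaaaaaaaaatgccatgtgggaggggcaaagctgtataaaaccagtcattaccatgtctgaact
The motif starts 137 bases before the start of CXCL8 and 102 bases before that of SERPINB2. Of the 71 genes called higher, 51 were in the promoter table and 9 of these (17.65%) held the motif, against 392 of 10212 tested genes (3.839%) and 6.596% of all 27305 promoters in the table. It was in 0 of the 26 histone promoters and 1 of the 63 other promoters of genes called lower. The TATA box was also in 11 of the 51 (21.57%), against 5.601% of tested genes. The TCF/LEF motif CTTTGAT was in 1 of the 51, 1 of the 26 and 0 of the 63, against 1.391% of tested genes. Counts this small cannot be told apart from that share. The motif was not counted over the Wnt genes as a set, and AXIN2 was not in the promoter table. These shares describe letters in a window and say nothing of binding.

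CTGF, a secreted matrix protein and a standard target of YAP and TEAD, moved against its response to SM08502. It stood at 135 and 137 CPM with vehicle, fell to 92.7 and 95.8 CPM with SM08502, and was at 120.3 and 138 CPM with the combination (0.45, SE 0.06, adjusted p = 0.00210). Its promoter at chr6:131951373-131951622, minus strand (GRCh38.p14, RefSeq CCN2), is shown with the TEAD motif GGAATG in capitals, because its TEAD sites are a textbook case.
CTGF: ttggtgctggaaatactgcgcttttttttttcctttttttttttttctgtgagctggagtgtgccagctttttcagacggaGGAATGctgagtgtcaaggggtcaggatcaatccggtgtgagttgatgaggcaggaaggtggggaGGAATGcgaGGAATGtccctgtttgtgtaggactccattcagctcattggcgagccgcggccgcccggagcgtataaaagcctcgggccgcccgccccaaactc
The motif was in 5 of the 51 promoters of genes called higher (9.804%) and in 9.401% of tested genes, so this share was near the background. CTGF overlaps CCN2-AS1. Of the 14 tested YAP and TEAD targets, 3 were called higher and 2 lower, with a median of -0.02. The other rises were those of F3, tissue factor (0.22), and NT5E, the ectonucleotidase CD73 (0.24), and the falls were those of TGFB2, a growth factor (129 and 132 to 111 and 97.5 CPM, -0.32, adjusted p = 0.00974), and AJUBA, a LIM protein (-0.20). F3, NT5E and AJUBA were named after their values were seen. Without the first SM08502 library 0 of the 14 were called, and without the second 1.

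Stress and lipid genes moved in both directions. Of 16 tested genes of the integrated stress response, 3 were called lower and 1 higher, 13 were below 0, and the median was -0.12. The calls among the 16 were lost without either SM08502 library, and their number moved without either combination library. Their median was -0.16 without the first combination library and -0.09 without the second. CHAC1, a glutathione-degrading enzyme, went from 12.9 and 15.1 CPM to 9.85 and 9.36 CPM (-0.50, adjusted p = 0.0242), and PSAT1 of serine synthesis (-0.29) and DDIT4, an inhibitor of mTORC1 (-0.27), fell with it, both named after their values were seen. PPP1R15A, the phosphatase subunit GADD34, went from 42.9 and 39.1 CPM to 49.6 and 52.5 CPM (0.31, adjusted p = 0.0215). INHBE, an inhibin subunit induced in the same response, had the largest fall that the rule named, from 8.53 and 9.33 CPM to 5.36 and 3.68 CPM (-0.86, SE 0.12, adjusted p = 0.00356). It had already fallen with SM08502 from 22.1 and 21.2 CPM with vehicle.

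Of 18 tested genes of cholesterol synthesis and SREBP targets, 1 was called higher and 2 lower, with a median of 0.01. HMGCS1, an early enzyme of the pathway, went from 85.4 and 86.1 CPM to 106 and 107 CPM (0.31, adjusted p = 0.00593). SCD, a fatty acid desaturase named after its value was seen, went from 101 and 91.5 CPM to 79.7 and 63.6 CPM (-0.43). Among 8 drug efflux transporters ABCC2 was the only call (31.1 and 29.98 to 26.0 and 17.2 CPM, -0.51, adjusted p = 0.0397). ABCB1, the transporter that exports paclitaxel, stood at 1.87 and 1.41 CPM with SM08502 and at 1.24 and 0.382 CPM with the combination, and was not called (-0.58, adjusted p = 0.168). FLRT3, a fibronectin leucine-rich membrane protein, and JPH2, a junctophilin, completed the falls named by the rule (-0.63 and -0.54, adjusted p = 0.0266 and 0.0431).

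Few tubulin, mitotic and replication genes were called. Of 12 tested tubulin genes, TUBA4A was the only call, from 108 and 114 CPM to 129 and 128 CPM (0.21, adjusted p = 0.0351). TUBB, the main beta-tubulin gene, stood at 1835 and 1973 CPM with SM08502 and at 2007 and 1981 CPM with the combination, and TUBB3, a beta-tubulin linked to taxane resistance, at 27.0 and 28.8 CPM and at 34.5 and 29.5 CPM, neither called (adjusted p = 0.661 and 0.215). TUBA1A was not called (0.14, adjusted p = 0.721). Of 30 mitotic and spindle checkpoint genes, 1 was called lower and 27 were below 0, with a median of -0.08. The number called moved with the library left out. Without the first combination library the median was -0.16, and without the second it was 0.00, with 15 above 0 and 15 below. The call was INCENP of the chromosomal passenger complex, from 68.2 and 72.2 CPM to 62.4 and 56.4 CPM (-0.24, adjusted p = 0.0439). CCNB1, the mitotic cyclin, stood at 158 and 163 CPM and at 173 and 153 CPM, and PLK1, a mitotic kinase, at 115 and 117 CPM and at 119.9 and 104 CPM, with overlapping groups in both genes (adjusted p = 0.922 and 0.685). Of 20 replication and E2F target genes, CDT1, which licenses replication origins, was the only call, from 85.8 and 90.8 CPM to 73.1 and 73.5 CPM (-0.27, adjusted p = 0.0149), and the median was -0.11. The number called in this list also moved with the library left out, and the call was lost without either SM08502 library. The median of the 20 was -0.17 without the first combination library and -0.05 without the second.

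Of the 19 tested CLK and SR genes 0 were called, and their median was 0.00. CLK1 stood at 60.5 and 54.5 CPM with SM08502 and at 61.4 and 63.1 CPM with the combination, against 15.1 and 16.3 CPM with vehicle. CLK2, CLK3 and CLK4 changed by -0.06, 0.00 and -0.10 on top of SM08502 (adjusted p = 0.805, 0.990 and 0.557). There were also 0 calls among the tested microtubule regulators (20 genes), BCL2 family (14), heat shock chaperones (15), interferon-stimulated genes (17), ribosomal proteins (20) and mitochondrially encoded genes (13). MCL1, an antiapoptotic BCL2 family member, stood at 248 and 245 CPM and at 246 and 271 CPM (adjusted p = 0.565). In the hypoxia list of 13 tested genes NDRG1 was the only call, from 238 and 255 CPM to 285 and 301 CPM (0.25, adjusted p = 0.0188).

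**Figure D3:**
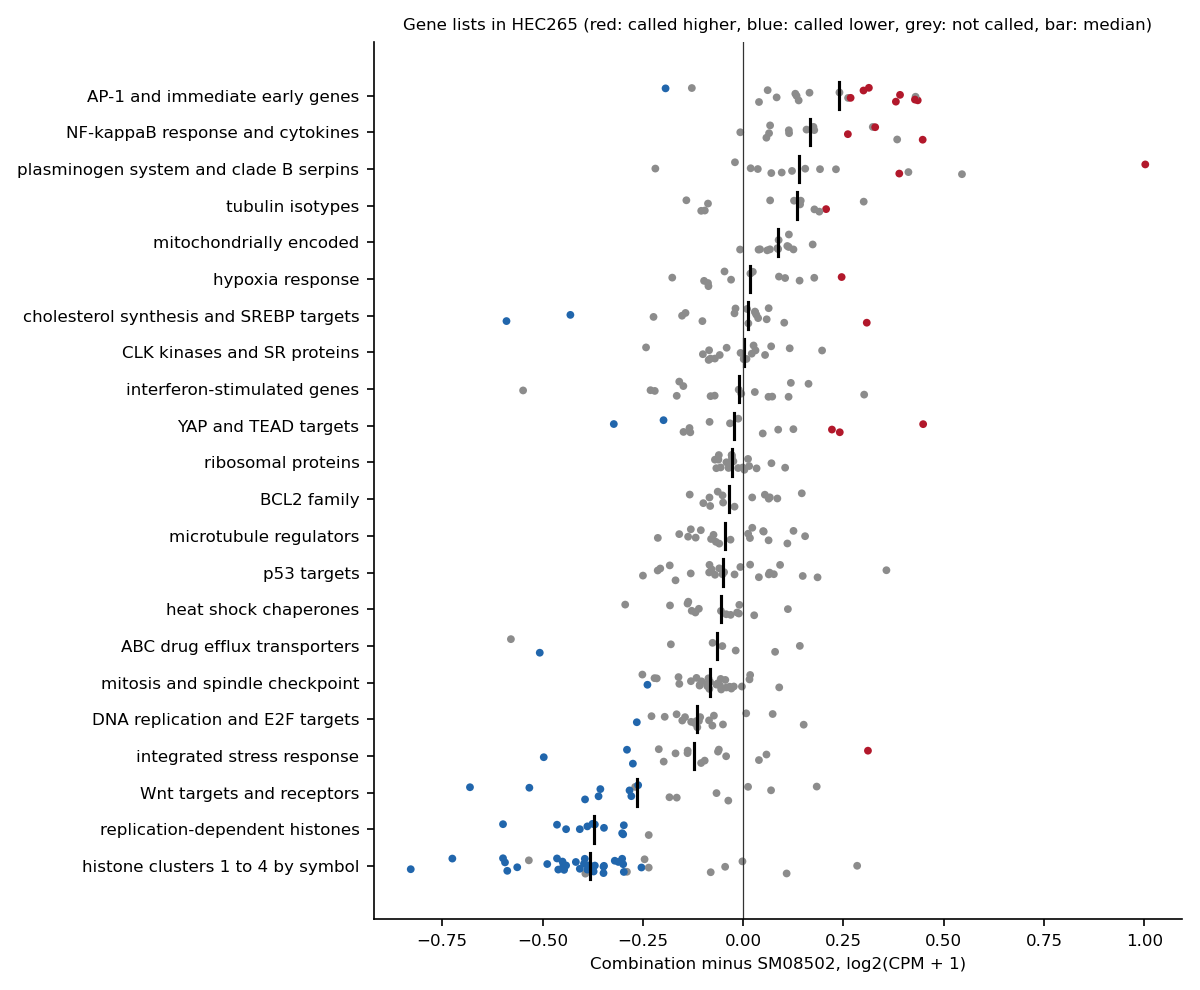
Change of each tested list member (x axis, combination minus SM08502 in log2(CPM + 1)), by list; red points are called higher, blue called lower, grey not called, and bars are medians. The medians run from -0.38 for the histone clusters to 0.24 for the immediate early genes, and the p53 targets lie around 0 with no call.

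Of the p53 targets, 11 of 24 rose with paclitaxel alone, and 0 were called with paclitaxel on top of SM08502. The factor p53 switches on genes for arrest, repair and death, among them CDKN1A, MDM2 and BTG2. With paclitaxel alone, where 31 genes of 13235 were called higher (0.234%), 11 of the 24 tested p53 targets were called higher. All 24 were above 0, against 62.5% of all genes tested, and the median was 0.28. With SM08502 alone 22 of the 24 were called higher (36.5% of all genes were) and the median was 0.51, and with the combination against vehicle 22 were called higher (40.4% of all genes) with a median of 0.46. After median re-centring of the libraries, 54.2% of the calls with paclitaxel alone were higher in place of 88.6%, 48.7% of those with SM08502 in place of 63.3%, and 50.5% of those with the combination in place of 63.9%. On top of SM08502, paclitaxel gave 0 calls among the 24, 15 were below 0 and the median was -0.05. That count moved with the libraries and settings. Without the first combination library some of the 24 were called, most of them lower, and the median was -0.08. After median re-centring and after quantile normalization 1 was called lower, and with limma voom 1 higher. DDB2, a DNA repair gene, had the smallest p of the list (-0.25, adjusted p = 0.0571) and was called lower in 5 of 18 alternatives. CDKN1A, the cell cycle inhibitor p21, stood at 429 and 404 CPM with vehicle, 548 and 553 CPM with paclitaxel, 726 and 750.2 CPM with SM08502, and 737 and 692 CPM with the combination. It rose with paclitaxel alone (0.40, adjusted p = 0.00214) and overlapped between the groups on top of SM08502 (-0.05, adjusted p = 0.718). MDM2, the ligase that degrades p53, and GDF15, a stress cytokine, likewise rose with paclitaxel alone (0.31 and 0.40, adjusted p = 0.00926 and 0.00214) and were not called on top of SM08502 (-0.06 and 0.02, adjusted p = 0.601 and 0.910).

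The difference between paclitaxel with and without SM08502 was tested as an interaction, which called 1 gene of 13235 (0.00756%) and gave 946 with an unadjusted p below 0.05. That gene was BTG2, an antiproliferative p53 target at chromosome 1, 203305519 to 203309602. It stood at 46.8 and 43.2 CPM with vehicle and 62.9 and 63.6 CPM with paclitaxel (0.48, adjusted p = 0.00108), then at 87.0 and 88.3 CPM with SM08502 and 78.4 and 72.6 CPM with the combination (-0.21, adjusted p = 0.0781). The interaction was -0.70 (SE 0.08, adjusted p = 0.00229). Of the 24 p53 targets 23 had an interaction below 0, with a median of -0.32. Over all genes 42.1% had an interaction above 0, and the median was -0.02. CDKN1A, MDM2 and GDF15 had interactions of -0.45, -0.37 and -0.38 that were not called (adjusted p = 0.0834, 0.106 and 0.130). The interaction called 448 genes without the first combination library, 17 without the second, and 0 without the first SM08502 library.

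The paclitaxel and vehicle libraries share no sample with the comparison and so give a further view of its calls. They did enter the filter and the spread behind those calls, so the calls were not chosen independently of them. Of the 71 genes called higher on top of SM08502, 64 (90.1%) were above 0 with paclitaxel alone, against 62.5% of all tested genes, and 5 were called higher. Of the 121 called lower, 112 (92.6%) were below 0 with paclitaxel alone, against 37.4% of all genes, and 2 were called lower. The median change with paclitaxel alone was 0.17 for the first set and -0.12 for the second, against 0.33 and -0.35 on top of SM08502. Over all 13235 genes the 2 changes had a Pearson r of 0.20 across genes, which are not independent.

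**Figure D4:**
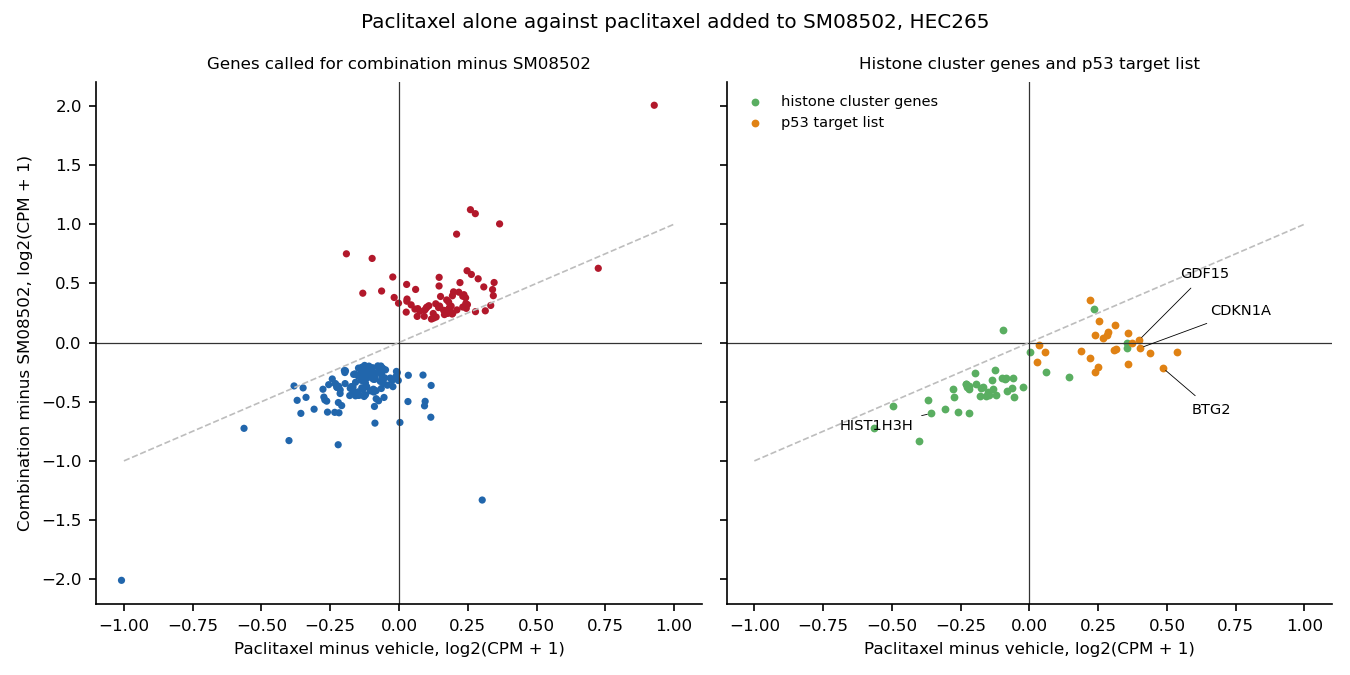
Change with paclitaxel alone (x axis, paclitaxel minus vehicle) against change with paclitaxel on top of SM08502 (y axis, combination minus SM08502), both in log2(CPM + 1); the dashed line marks equal change. On the left are the 192 called genes (red higher, blue lower); on the right the 42 histone cluster genes (green) and the 24 p53 targets (orange). Most called genes lie in the quadrants of equal sign, and the p53 targets lie right of 0 and around 0 on the y axis.

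In the other lines the same comparison used other doses: 6 nM paclitaxel and 85 nM SM08502 in Ishikawa-S33Y, 11.7 nM and 350.7 nM in SNGM, and 11 nM and 80 nM in Ishikawa. Dose and line therefore cannot be told apart. The Ishikawa libraries also began from 350 ng of RNA, against 500 ng in the other lines, which cannot be told apart from that line either. Ishikawa-S33Y and SNGM also each had a shallow second combination library, of 2.99 and 1.61 M reads. The test of the difference between HEC265 and each line, with the spread of all 32 libraries, called 0 of 17011 genes (0%) for Ishikawa-S33Y, SNGM and Ishikawa (830, 1016 and 199 genes had an unadjusted p below 0.05). With the libraries of HEC265 and Ishikawa-S33Y alone that difference called 111 genes. Without the deep combination library of Ishikawa-S33Y or SNGM, 414 and 2745 genes were called, from a comparison then resting on the shallow one. Within each line, 22 genes were called in Ishikawa-S33Y (0.129%; 0.0588% higher, 0.0705% lower), 43 in SNGM (0.253%; 0.235% higher, 0.0176% lower) and 0 in Ishikawa (0%, with 308 at an unadjusted p below 0.05), and none of the 42 histone genes was among them. In that same fit, with the spread of all 32 libraries, 0 of the 42 histone genes were called in HEC265 either.

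The 121 genes lower in HEC265 were below 0 in 74.4% of cases in Ishikawa-S33Y (57.0% of all genes were), in 49.6% in SNGM (45.1%) and in 74.4% in Ishikawa (41.0%). The 71 genes higher in HEC265 were above 0 in 50.7%, 69.0% and 54.9% of cases, against 42.8%, 54.5% and 58.8% of all genes. The 42 histone genes had a median of -0.33 in Ishikawa-S33Y, 0.12 in SNGM and -0.05 in Ishikawa, with 37, 13 and 34 of 42 below 0. Without the shallow libraries the medians were -0.21 in Ishikawa-S33Y and -0.09 in SNGM, so the sign in SNGM rested on that library. Of the 16 Wnt genes 0 were called in any of the 4 lines in this fit, HEC265 included, and their medians in the other lines were -0.04 in Ishikawa-S33Y, 0.03 in SNGM and 0.05 in Ishikawa. SERPINB2 changed by 0.09 in Ishikawa. In Ishikawa-S33Y and SNGM its change was exactly 0, which at unequal depths means no reads in the libraries compared. A response of SERPINB2 could not be measured in those lines. Its difference from HEC265 was not called for Ishikawa-S33Y, SNGM or Ishikawa (adjusted p = 0.480, 0.673 and 1). CTGF was called higher in SNGM (0.80, adjusted p = 0.0341), where 40 genes were, and changed by 0.11 in Ishikawa-S33Y and -0.14 in Ishikawa. TUBA4A was also called higher in SNGM (0.52, adjusted p = 0.0308), and changed by 0.27 in Ishikawa-S33Y and 0.25 in Ishikawa. TUBA1A, not called in HEC265, was called higher in SNGM (0.93, adjusted p = 0.0196).

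**Figure D5:**
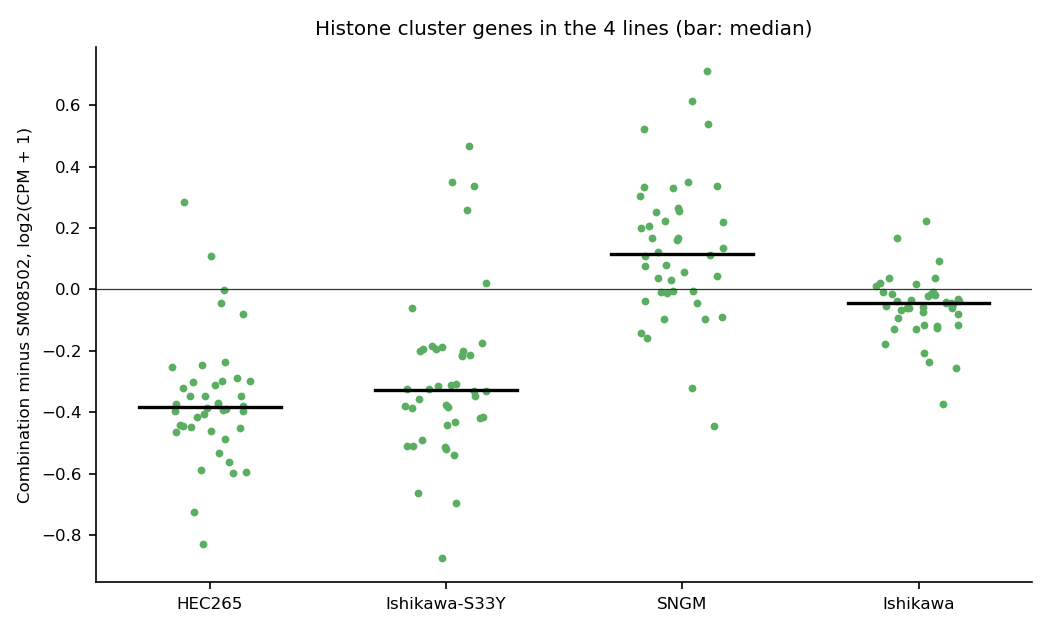
Change of each of the 42 histone cluster genes (points; y axis, combination minus SM08502 in log2(CPM + 1)) in HEC265, Ishikawa-S33Y, SNGM and Ishikawa, with medians as bars. The medians are -0.38, -0.33, 0.12 and -0.05, and in SNGM the median without the shallow library was -0.09.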

How the data were processed

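RNA of 4 endometrial cancer lines was sequenced after FastSelect depletion and KAPA mRNA HyperPrep on an Illumina NovaSeq, per the labels' protocols. The submitters' processing notes name bcl2fastq, STAR, kallisto and GRCh38; versions and the strand of counting are not given in the sources used here. The authors deposited log10(CPM + 1) for 35238 genes. This was undone to give CPM, and log2(CPM + 1) (pseudocount 1) was tested, which understates changes of low genes. Values are whole multiples of 1 read: 100% of values gave whole reads within 0.01, which gave depth.

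Groups came from the titles. A limma model with an intensity trend (limma 3.58.1, R 4.3.3; 1 mean per group, 2 libraries each) was fitted to 8 HEC265 libraries (4 residual degrees of freedom, prior 11.9), two-sided, with Benjamini-Hochberg adjustment over 13235 genes. Differences between lines used all 32 libraries (17011 genes). The fit was tested on simulated data.

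The comparison, the 25 gene lists and the naming rule were chosen with earlier results of these data known. The rule took 18 fixed genes, the 10 largest called rises and falls with mean log2(CPM + 1) of at least 2 and groups that did not overlap, the largest interactions and differences from Ishikawa-S33Y, and the top called member of each list each way. The histone cluster set and the fit without the shallow libraries were added after seeing the data. Promoters and positions are from RefSeq (GRCh38.p14). Alternatives were other filters (none, and mean of at least 2), a pseudocount of 0.1, median re-centring, quantile normalization, no trend, other samples for the spread, a replicate block, limma voom on recovered reads, and leaving out each library. Splicing tables were not used here, and some genes that the rule took are not reported here.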

Additional observations from a re-analysis of the deposited data

Results flagged for a closer look

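BTG2, an antiproliferative p53 target, rose with paclitaxel alone in HEC265 (0.48, adjusted p = 0.00108), and its change on top of SM08502 was below 0 and was not called (-0.21, adjusted p = 0.0781). The difference between its change on top of SM08502 and its change on top of vehicle was -0.70 on the log2 scale (limma interaction, adjusted p = 0.00229). Both vehicle libraries were below both paclitaxel libraries, and both SM08502 libraries were above both combination libraries. The interaction was called in the HEC265 fit, with the stricter filter, a pseudocount of 0.1 and a replicate block. It was also called after median re-centring or quantile normalization and with limma voom. Without the filter, without the trend or with the spread of all 32 libraries 0 interactions were called. The call was also lost without the first SM08502 library.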

How the results depend on the processing

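The 192 calls for the combination against SM08502 became 0 without the filter, without the intensity trend and with the spread of all 32 libraries, 62 with the spread of the 4 libraries compared, and 4 to 1180 when 1 library was left out. They were 209 with the stricter filter, 187 with a pseudocount of 0.1, 222 after median re-centring, 210 after quantile normalization, 144 with limma voom and 235 with a replicate block. Samples with the same number did not deviate together (r across genes from -0.07 to 0.09), and the main fit paired no samples. Whether such samples shared a culture or day is not stated. The cause of these changes was not tested.

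Paclitaxel against vehicle gave 35 calls, 0 without the filter, without the trend or with the spread of all libraries, 15 after quantile normalization, and 6 to 339 when 1 library was left out. SM08502 against vehicle gave 7631 calls and the combination against vehicle 8375, and 2701 and 3542 with the spread of all libraries. The interaction called 1 gene, 0 without the filter, without the trend or with the spread of all libraries, 3 after quantile normalization, 4 with limma voom, and 0 to 448 when 1 library was left out. The difference from Ishikawa-S33Y called 0 genes, 111 with these lines alone and 0 to 414 when 1 library was left out; for SNGM the range was 0 to 2745 and for Ishikawa 0 to 2. With the replicate block these differences called 0.

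After median re-centring the share of higher calls went from 88.6% to 54.2% for paclitaxel, from 63.3% to 48.7% for SM08502 and from 63.9% to 50.5% for the combination, each against vehicle.

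Of 1149 values of named genes under alternatives, 839 kept direction and side of the threshold, 287 lost and 13 gained a call, and 10 changed sign, none of them a called gene. CLK3 was -0.0035 after re-centring. When 1 library was left out, CLK3 ran from -0.027 (without the first combination library) to 0.031, CCNB1 from -0.071 (without the same) to 0.10 and GDF15 from -0.035 (without the same) to 0.070. MCL1 ran from -0.0010 (without the second combination library) to 0.13, PLK1 from -0.16 to 0.041 (without the same) and MT-ND1 from -0.13 (without the second SM08502 library) to 0.48.

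Depth of 20.9 M reads or more left genes near 3 reads (0.108 to 0.143 CPM) unmeasured, and 2 libraries a group limit every test.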

Other observations

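Genes outside the lists that were called in HEC265 are given here as values, chosen after they were seen. LAMB3, a subunit of an epithelial basement membrane laminin, and ITGA2, an integrin subunit that binds collagen, were among the rises: LAMB3 stood at 368 and 399 CPM with SM08502 and at 445 and 495 CPM with the combination, and ITGA2 at 189 and 185 CPM and at 223 and 283 CPM. HBEGF and TGFA, which encode ligands of the EGF receptor, changed by 0.40 and 0.22 (adjusted p = 0.0419 and 0.0383). TXNIP and ARRDC4, arrestin family members that respond to glucose, changed by 0.33 and 0.34 (adjusted p = 0.0266 and 0.0431).

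FGFR2, a receptor of fibroblast growth factors, went from 50.5 and 48.9 CPM to 43.2 and 29.1 CPM (-0.47, adjusted p = 0.0419), and its relative FGFR3 changed by -0.49 (adjusted p = 0.0351). SHMT1 (-0.31), PCK2 (-0.31), PYCR1 (-0.23), the alanyl-tRNA synthetase gene AARS (-0.21) and the glycine transporter gene SLC6A9 (-0.37) were also called lower. NCAPD2 of condensin, SMC1A of cohesin, FANCD2 of DNA crosslink repair and DNMT1, the maintenance DNA methyltransferase, changed by -0.25, -0.22, -0.23 and -0.23. The Notch ligand JAG1 fell (-0.21) while HES1, a Notch target, rose from 20.8 and 19.3 CPM to 26.3 and 27.8 CPM (0.42, adjusted p = 0.0167).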
